A study of Homo sapiens with 4 samples.

Results

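The 53 genes described here encode the TGF-beta and BMP pathway, out of 20007 protein-coding genes of the GENCODE annotation. They were chosen by name and sorted by role into 21 ligands, 12 receptors, 8 SMADs and 12 inhibitors and regulators. Each gene was read through the H3K27ac peaks that overlapped its body plus 10 kb on either side (its window). H3K27ac is an acetylation of histone H3 that marks active promoters and enhancers. The series compared SK-N-BE(2)C cells, a neuroblastoma line with amplified *MYCN*, after transfection of Cas9 with paired guide RNAs against the long noncoding RNA gene *SNHG1* (sgSNHG1, genotype labelled SNHG1 knockout) or with a non-targeting guide RNA (sgCtrl, labelled wildtype). Both kinds of cells went through puromycin selection and the sorting of single cells, so each line is a clone. The labels and methods used here do not say which sgSNHG1 clone was used for the ChIP-seq. Each group had 2 ChIP-seq samples, whose reads were pooled by the authors before peaks were called, so that 1 list of peaks per group was analysed.

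Because the lists hold no value per replicate, the spread between replicates and the depth per sample are unknown. No difference below was tested, all of them describe these 2 lists, and clone and *SNHG1* status cannot be told apart. A missing peak means that no peak passed the authors' threshold (a p-value of 1e-06), not that the mark was absent. There were 63699 peaks in sgCtrl and 50119 in sgSNHG1 (ratio 0.787), so values over all genes are given beside those of the pathway. Over the body of *SNHG1* itself, on chromosome 11, the sgCtrl list held 1 peak with a fold enrichment of 3.44 and the sgSNHG1 list held 0. The 10 kb on either side were not read for this gene. Start sites of noradrenergic neuroblastoma markers (*MYCN*, *HAND2*, *ISL1*, *GATA3*, *TH*, *DBH*, *CHGA*) carried a peak at 6 of 7 genes in sgCtrl and at 7 of 7 in sgSNHG1, *DBH* being the gene without a peak in sgCtrl. Among 10 markers of leukocytes, epithelium, hepatocytes and endothelium, *EPCAM* and *CDH1* carried one in both lists and *APOA1* in sgCtrl.

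Ligands of this family are secreted dimers that bring together type I and type II receptor kinases. The receptors then phosphorylate SMAD2 and SMAD3 (TGF-beta and activin signals) or SMAD1, SMAD5 and SMAD9 (BMP signals), which enter the nucleus with SMAD4. Secreted antagonists such as noggin, latent TGF-beta binding proteins, the ubiquitin ligases SMURF1 and SMURF2 and the inhibitory SMAD6 and SMAD7 restrain the signal at successive steps. BMPs are known for driving neural crest cells into the sympathoadrenal lineage, from which neuroblastoma arises.

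The peaks that the results turn on can be shown by their sequence. The first 4 lines below give, for each role, the middle 151 bases of the start-site peak (a peak within 1 kb of a start site of the gene) that was highest in sgCtrl among those both lists held, read at the position of the sgCtrl peak. The following line gives the middle of the highest peak that the sgSNHG1 list alone held, and the last gives the peak of *TGFBR2*, which was in the sgSNHG1 list alone. All are on the plus strand of GRCh38. Capitals mark each CAGAC (or its reverse complement GTCTG), a core that SMAD proteins are known to bind, and each GGCGCC, a GC-rich SMAD motif.
*GDF11* (ligand), chr12:55743779-55743929: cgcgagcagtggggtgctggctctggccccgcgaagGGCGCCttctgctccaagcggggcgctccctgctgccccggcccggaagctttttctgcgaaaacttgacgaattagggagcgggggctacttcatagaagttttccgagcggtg
*ACVR1B* (receptor), chr12:51952067-51952217: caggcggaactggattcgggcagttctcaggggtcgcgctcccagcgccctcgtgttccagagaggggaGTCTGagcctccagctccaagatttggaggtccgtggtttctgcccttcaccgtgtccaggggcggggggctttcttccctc
*SMAD4* (SMAD), chr18:51030513-51030663: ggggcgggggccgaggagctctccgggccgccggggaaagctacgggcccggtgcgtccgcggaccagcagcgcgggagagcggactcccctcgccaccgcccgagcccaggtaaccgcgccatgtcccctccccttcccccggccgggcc
*SMURF1* (regulator), chr7:99143787-99143937: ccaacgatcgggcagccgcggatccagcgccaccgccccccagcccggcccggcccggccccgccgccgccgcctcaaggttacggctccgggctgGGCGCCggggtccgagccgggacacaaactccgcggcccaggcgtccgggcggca
*LTBP1* (sgSNHG1 alone), chr2:33216747-33216897: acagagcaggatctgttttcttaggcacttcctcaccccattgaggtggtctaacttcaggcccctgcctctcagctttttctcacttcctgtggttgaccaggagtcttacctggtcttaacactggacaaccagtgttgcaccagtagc
*TGFBR2* (sgSNHG1 alone), chr3:30606861-30607011: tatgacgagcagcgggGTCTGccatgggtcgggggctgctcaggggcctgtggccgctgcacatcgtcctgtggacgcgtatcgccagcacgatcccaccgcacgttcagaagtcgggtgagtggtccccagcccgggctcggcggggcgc

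The 5 start-site sequences held 9 to 24 CpG each. The window of *SMURF1* held 24 CpG in 151 bases at 80.8% GC and that of *SMAD4* held 20 at 79.5%, against 0 at 51.0% GC for the intronic peak of *LTBP1*. The *TGFBR2* sequence held 16 CpG and 1 copy of the short SMAD core. That core stood in the middle 151 bases of 29.7% of the 195 sgCtrl peaks in pathway windows and of 31.0% of all sgCtrl peaks, and the GC-rich motif stood in 13.3% and 10.6%. In sgSNHG1 the core stood in 37 of the pathway's 137 peaks and in 29.8% of all peaks, and the GC-rich motif in 13.1% against 12.0%. In RefSeq promoters of GRCh38 (250 bases before to 50 after the start, found for 46 of the 53 genes), the core stood in 47.8% against 44.3% of 15345 protein-coding promoters and the GC-rich motif in 34.8% against 25.5%. Both strands were searched, and a copy of one motif can share an end base with the other. The median promoter of the pathway held 31.5 CpG in 300 bases, against 22 over all genes. The 39 promoters of pathway genes with a start-site peak in sgCtrl held a median of 33 CpG, and the 7 without one held 11.

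Most of the pathway carried H3K27ac in both cell lines, and its receptors and SMADs stood higher than its ligands. In sgCtrl, 45 of the 53 genes had a peak in the window (84.9%, against 79.4% of all protein-coding genes), and in sgSNHG1 44 did (83.0%, against 77.5%). A start-site peak was found at 43 genes in sgCtrl (81.1%, against 64.3%) and at 42 in sgSNHG1 (79.2%, against 63.4%), and 41 genes had one in both. All 8 SMADs and 11 of 12 inhibitors and regulators had a start-site peak in each list. Among the receptors 11 had one in sgCtrl and 12 in sgSNHG1, and among the 21 ligands 13 and 11. *BMP2*, *BMP3*, *BMP5*, *GDF15*, *INHBA* and *INHBE*, all ligands, and the activin antagonist *FST* had no peak in either list. The nearest peak to *BMP2* was 711 kb away in sgCtrl and 645 kb away in sgSNHG1, whereas that of *INHBE* was 16.8 kb and 21.5 kb away.

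Peak height was compared as the percentile of a peak's fold enrichment within its own list. The highest peak of a receptor window stood at a median percentile of 95.8 in sgCtrl and 95.5 in sgSNHG1. That of a SMAD stood at 92.5 and 90.1, that of an inhibitor or regulator at 89.4 and 88.0, and that of a ligand at 69.9 and 68.5. Over all genes with a peak the medians were 86.4 and 85.9. No ligand passed the percentile 85.9 in sgCtrl (*GDF6*) or 78.5 in sgSNHG1 (*TGFB2*), while no SMAD was below 84.6 in sgCtrl or 81.3 in sgSNHG1. The highest SMAD peak in sgCtrl belonged to *SMAD4*, the common partner of the receptor-activated SMADs, with a fold enrichment of 18.6 (14.7 in sgSNHG1). In sgSNHG1 it belonged to *SMAD5*, a BMP-activated SMAD, at 19.7 (16.5 in sgCtrl). *SMURF1* was close to these, at 18.1 in sgCtrl and 15.4 in sgSNHG1. Among the receptors the highest in sgCtrl were the activin receptors *ACVR1B* (13.9 in both lists) and *ACVR2A* (13.8 in sgCtrl, 12.1 in sgSNHG1).

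**Figure D1:**
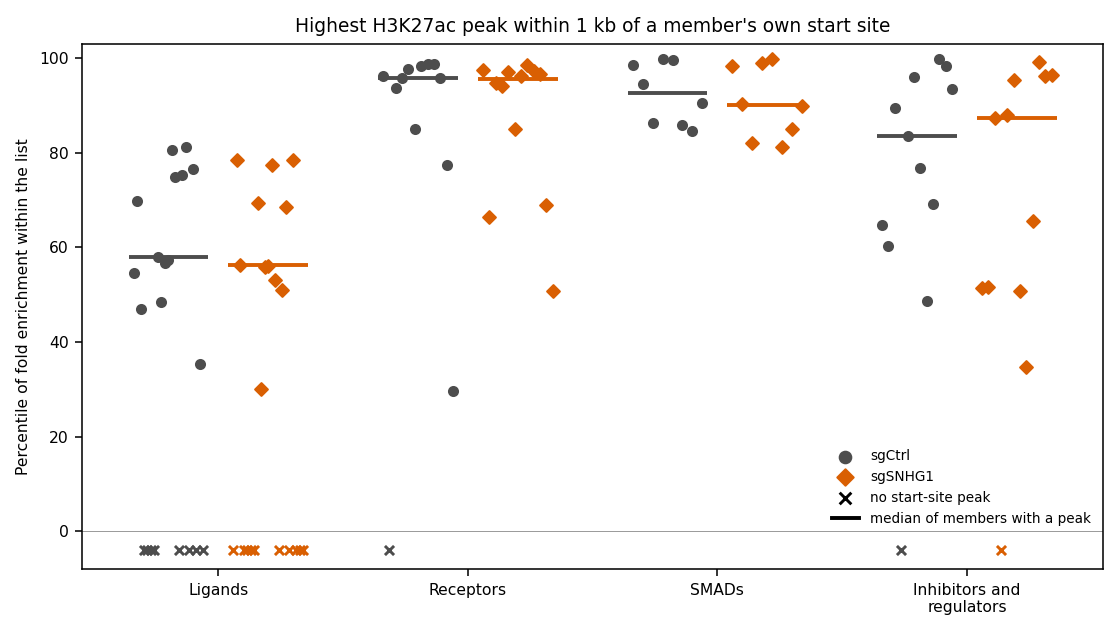
Percentile of fold enrichment within its own list (y axis) of the highest peak within 1 kb of each gene's own start site, for the 4 roles (x axis), with 1 point per gene, circles for sgCtrl and diamonds for sgSNHG1. Lines are medians of the genes with such a peak and crosses are genes without one. Ligand points lie no higher than 81.3, no SMAD point lies below 81.3, and the crosses are mostly ligands.

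The pathway held fewer peaks in sgSNHG1, as did the genome as a whole. Its windows held 195 peaks in sgCtrl and 137 in sgSNHG1, a ratio of 0.703, against 0.792 over the windows of all genes. At own start sites the median length of the pathway's peaks was 573.5 bases in sgCtrl and 672.5 in sgSNHG1. The peaks covered 97076 bases in sgCtrl and 73492 in sgSNHG1, a ratio of 0.757. Summed over the windows of all genes the ratio was 0.800, with peaks in overlapping windows counted more than once. Over the whole lists, each peak counted once, it was 0.768, close to that of the pathway. Of the sgCtrl peaks 61.0% overlapped an sgSNHG1 peak (exact 95% interval 53.8% to 67.9%), against 61.5% of the whole list. Of the sgSNHG1 peaks 86.1% overlapped an sgCtrl peak (79.2% to 91.4%), against 79.2%. These intervals cover counting error only. The sgCtrl peaks without a counterpart were weaker, with a median −log10 p of 11.3 against 19.2 for those with one. The same was seen in the whole list, at 11.1 and 20.1.

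A larger share of peaks had a counterpart at start sites than in the rest of the windows. Within 1 kb of any protein-coding start site 85.9% of the pathway's sgCtrl peaks had a counterpart in sgSNHG1, and elsewhere 46.8% did, against 85.3% and 52.8% in the whole list. The peaks at a gene's own start numbered 66 in sgCtrl and 60 in sgSNHG1, whereas those in introns numbered 77 and 44 and those in the flanks 17 and 7. Of the 77 intronic sgCtrl peaks 35 overlapped an sgSNHG1 peak. Those that did not included every intronic peak of *BMPR1B*, on the long arm of chromosome 4. Introns, exons and flanks were not counted over the whole list, so these counts show nothing particular to the pathway. In the whole list, peaks within 1 kb of a start site numbered 17039 in sgCtrl and 16653 in sgSNHG1. Those elsewhere numbered 46660 and 33466. Exons held 30 and 23 peaks, and the start sites of neighbouring genes 5 and 3.

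By role, the covered length was 22074 bases in sgCtrl and 13951 in sgSNHG1 at the ligands, a ratio of 0.632. The ratio was 0.747 at the receptors (31667 and 23662 bases), 0.804 at the inhibitors and regulators (25718 and 20684) and 0.863 at the SMADs (17617 and 15195). The SMAD ratio turned to 1.05 when the lists were cut to equal size. The windows of the roles differ in length, with medians of 41.4 kb for ligands, 107 kb for receptors, 97.0 kb for SMADs and 43.7 kb for inhibitors and regulators, so that bases are compared within a role. Of the 46 genes with a peak in either list, 10 had a covered length in sgSNHG1 of at most 0.5 times that in sgCtrl (21.7%, against 13.9% of 16339 genes) and 2 had at least 2 times (4.35%, against 5.18%). The 10 were the ligands *TGFB1*, *BMP4*, *BMP8B*, *GDF6* and *INHBB*, the receptors *BMPR1B* and *ENG*, and the inhibitors and regulators *NOG*, *FSTL3* and *LTBP4*. With lists of equal size 4 of them passed that limit, namely *BMPR1B*, *GDF6*, *NOG* and *LTBP4* (9.09%, against 8.62% of all genes). With only peaks of a −log10 p of at least 10 the share was 15.9%, against 16.0% of all genes. In the gene body alone it was 15.9%, against 16.4%. Windows of 50 kb gave 16.3% against 10.6%, and merging of peaks within 1 kb gave 23.9% against 15.85%. The higher share at the pathway thus depended on the setting. The 2 genes at 2 times or more were *TGFBR2* and *BMP7*. The percentile of the highest peak was lower in sgSNHG1 at 32 of the 43 genes with a peak in both lists, with a median change of -1.98 points. Over all genes it was lower at 8899 of 15051, with a median of -0.68. For the pathway it was -0.405 when both lists had the same number of peaks, and windows of 50 kb gave -0.801. The median change over all genes is not given in these settings.

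**Figure D2:**
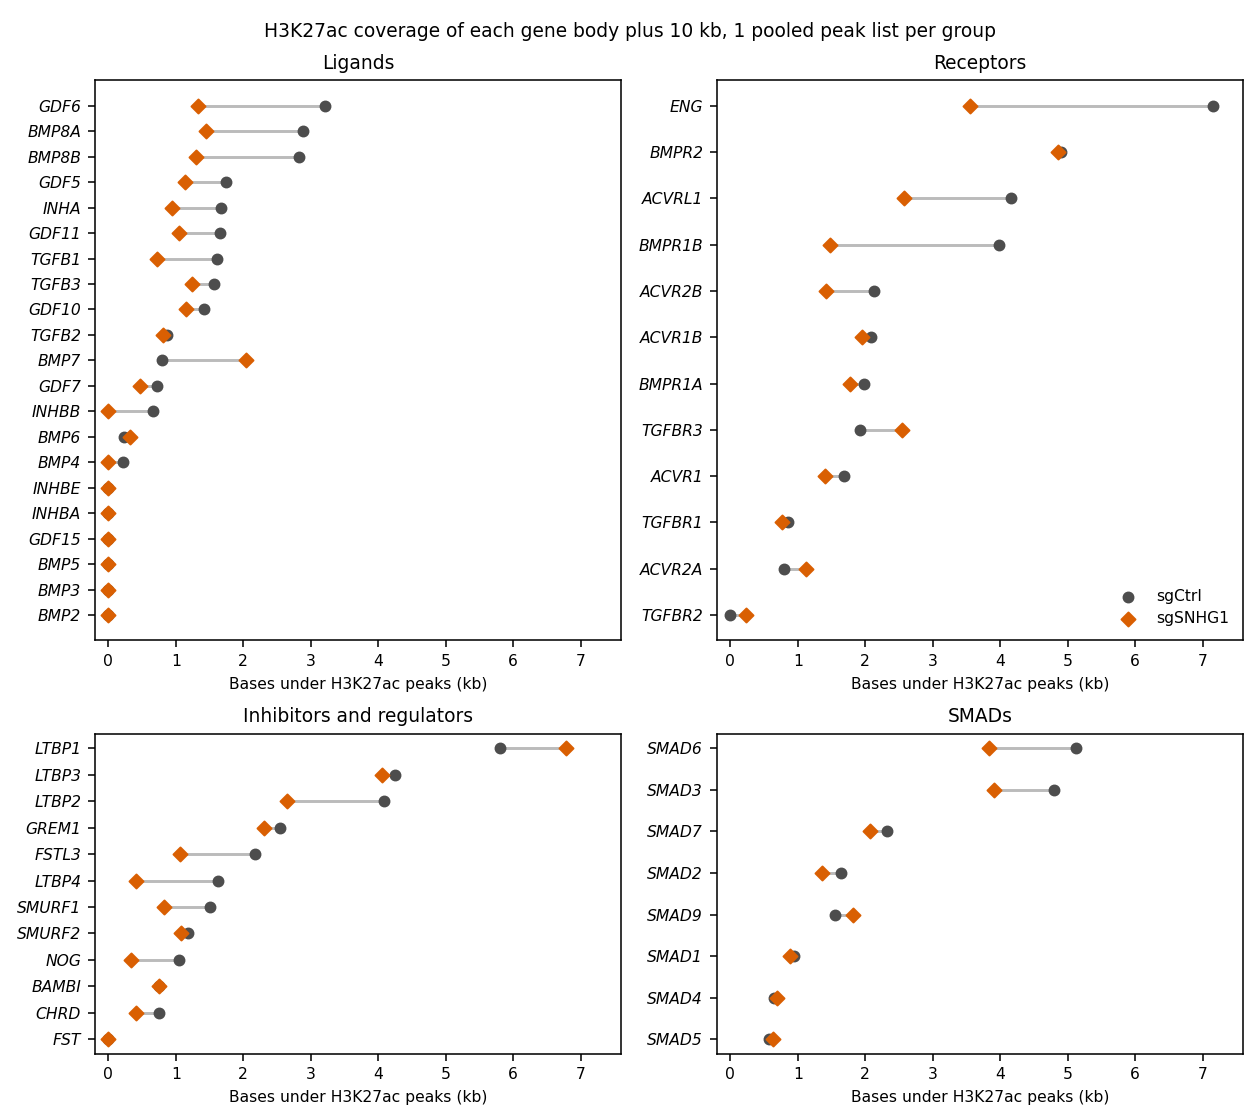
Bases under H3K27ac peaks in kb (x axis) in the window of each of the 53 genes, by role, with circles for sgCtrl, diamonds for sgSNHG1 and a grey line joining them. The longest lines to the left are those of *ENG* (7153 to 3556 bases), *BMPR1B* (3979 to 1474) and *GDF6* (3204 to 1329), and *BMP7* and *LTBP1* run to the right.

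The fold enrichment divides a summit by its local background, so the number of fragments over each summit was also recovered from the fold enrichment and the p-value. Whole numbers came out within 0.001 for 99.6% of the peaks of either list. For each start-site peak found in both lists, the sgSNHG1 fragments were divided by the sgCtrl fragments and by the ratio of the genome-wide background (4.66 fragments in sgSNHG1, 4.89 in sgCtrl). This scaled ratio had a median of 0.953 over 41 pathway genes and of 1.10 over 11867 protein-coding genes, whose quartiles were 0.920 and 1.29. Over all 39156 shared peaks, at start sites or not, it was 0.919, and the medians given below for peaks within 5 Mb of a gene are of this kind. The medians were 0.980 for ligands, 1.11 for receptors, 0.970 for SMADs and 0.919 for inhibitors and regulators. Intervals given with these ratios are exact 95% counting intervals, and fragments may include PCR duplicates, since duplicates were kept.

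Among the ligands, *GDF6* had the most covered bases in sgCtrl and the lowest start-site ratio in sgSNHG1. *GDF6* encodes a BMP family growth factor of skeletal and eye development and lies on the minus strand, chr8:96142333-96160806. Its 5 sgCtrl peaks covered 3204 bases and its 3 sgSNHG1 peaks covered 1329. The 2 sgCtrl peaks without a counterpart lay at the start of the gene, with fold enrichments of 4.21 and 5.01. At the start-site peak that both lists held there were 78 fragments in sgCtrl and 26 in sgSNHG1, a scaled ratio of 0.350 (0.216 to 0.552), and only 4 of the 11867 genes had a lower one. The peak in the exon had 92 and 37 fragments and the intronic one 46 and 29, so all 3 shared peaks were lower in fragments. By fold enrichment the intronic peak was higher in sgSNHG1, at 3.66 against 2.97. The local background at the start was 16.4 fragments in sgCtrl and 5.77 in sgSNHG1, so the fold enrichments there were closer, at 4.53 and 3.99. The 191 shared peaks within 5 Mb had a median ratio of 0.966. Whether the number of copies of *GDF6* differed between the clones was not tested.

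*BMP8A* and *BMP8B*, neighbouring and similar BMP genes on chromosome 1, followed in covered bases. *BMP8B* had 9 peaks over 2826 bases in sgCtrl and 1 peak over 1296 bases in sgSNHG1. The 7 sgCtrl peaks without a counterpart had fold enrichments of 2.69 to 4.58, and both start-site peaks lay under the 1 sgSNHG1 peak. *BMP8A* had 7 peaks over 2884 bases and 4 peaks over 1454 bases. At the start sites the scaled ratios were 0.943 for *BMP8B* (0.580 to 1.53) and 1.05 for *BMP8A* (0.648 to 1.70). In the middle of the start-site peaks, 3 of 5 stretches of 30 bases at *BMP8A* and 2 of 5 at *BMP8B* occurred 2 times in the genome, so reads of the pair may be exchanged.

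*TGFB1*, the prototype ligand of the family, had 4 peaks over 1615 bases in sgCtrl and 2 peaks over 717 bases in sgSNHG1. The 2 shared peaks were intronic. The sgCtrl peak near the start, chr19:41354633-41354900, had a fold enrichment of 3.93 and 27 fragments with no counterpart, and it also lay within 1 kb of a start site of *TMEM91*. *TGFB2* had 2 peaks in each list, over 869 and 816 bases, with 28 and 38 fragments at the start. *TGFB3* had 4 in each list, and its highest lay at the start site of the neighbouring gene *IFT43* (5.17 in sgCtrl, 4.94 in sgSNHG1).

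*INHBB*, the activin and inhibin beta B subunit, had 2 peaks over 669 bases in sgCtrl, with fold enrichments of 3.30 and 3.26 and 32 fragments each. It had none in sgSNHG1, where the nearest peak was 30.4 kb away. *BMP4*, a BMP known from sympathetic development, had 1 sgCtrl peak of 214 bases in its flank, with 24 fragments, and none in sgSNHG1. The −log10 p of these peaks was 9.24 and 9.07 at *INHBB* and 9.99 at *BMP4*, below the median of 11.3 of the pathway's sgCtrl peaks without a counterpart. *BMP7*, which acts in kidney and eye development, went the other way. It had 2 peaks over 795 bases in sgCtrl and 4 over 2043 bases in sgSNHG1, the 2 added ones being intronic with fold enrichments of 2.90 and 3.89. The start-site peak of *BMP7* had 30 fragments in sgCtrl and 33 in sgSNHG1, a scaled ratio of 1.16 (0.683 to 1.96).

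The remaining ligands with peaks were *BMP6*, *GDF5*, *GDF7*, *GDF10*, *GDF11* and *INHA*. Their covered length was smaller in sgSNHG1 except at *BMP6*, which had 1 peak of 235 bases in sgCtrl and 317 in sgSNHG1. *GDF11*, a regulator of axial patterning, had the shared start-site peak of the ligands that was highest in sgCtrl, with a fold enrichment of 5.66 in sgCtrl and 4.73 in sgSNHG1 and 94 and 77 fragments. The highest start-site peaks of *GDF5* and *INHA* also lay within 1 kb of the starts of *CEP250* and *OBSL1*, so the mark there cannot be assigned to 1 gene.

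Among the receptors, the intronic peaks of *BMPR1B* were in the sgCtrl list alone, and the 1 peak of *TGFBR2* was in the sgSNHG1 list alone. *BMPR1B*, a type I BMP receptor on chromosome 4 (chr4:94757955-95158448, plus strand), had 7 peaks over 3979 bases in sgCtrl and 1 over 1474 bases in sgSNHG1. The 6 intronic sgCtrl peaks had fold enrichments of 3.37 to 6.11 and 24 to 36 fragments. The fold enrichment of the start-site peak was 12.2 in sgCtrl and 12.0 in sgSNHG1. The fragments there were 355 and 180, over a local background of 28.2 and 14.0, so the scaled ratio was 0.533 (0.443 to 0.639). Fold enrichment alone therefore did not show this difference.

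The surroundings of *BMPR1B* were low as well. Within 5 Mb, the window of *BMPR1B* included, 65 sgCtrl peaks stood against 19 sgSNHG1 peaks. The 17 shared peaks outside that window had a median ratio of 0.575. The long arm of chromosome 4 (beyond 52 Mb) held 1102 sgCtrl and 450 sgSNHG1 peaks, and the 230 genes on it with a start-site peak in both lists had a median ratio of 0.638. *SMAD1*, the BMP-activated SMAD on the same arm (chr4:145481194-145559176), had 1 start-site peak in each list, with fold enrichments of 13.3 and 13.4. It had 220 fragments in sgCtrl and 115 in sgSNHG1, a scaled ratio of 0.549 (0.434 to 0.691), beside 0.635 for 26 shared peaks within 5 Mb. *BMP3*, an antagonistic BMP on this arm, had no peak, and its surroundings held 92 peaks in sgCtrl and 38 in sgSNHG1. Whether the number of copies of this arm differed between the clones was not tested. Of 351 protein-coding genes on this arm with a peak in either list, 151 had a covered length of at most 0.5 times that in sgCtrl (43.0%). Without the 3 pathway genes on this arm, 9 of the 44 with a peak passed that limit (20.5%). The share over all genes, this arm included, was 13.9%. The covered length of the pathway without these 3 genes had a ratio of 0.772.

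*TGFBR2*, the type II receptor that binds TGF-beta, had no sgCtrl peak in its window, and the nearest one was 838 kb away. The sgSNHG1 list held 1 peak at its start, chr3:30606823-30607049, of 227 bases, with a fold enrichment of 4.60, a −log10 p of 11.2 and 25 fragments. Its percentile in the list was 66.5. The 22 shared peaks within 5 Mb of *TGFBR2* had a median ratio of 1.20. *TGFBR1*, the type I receptor of the same ligand, had 1 start-site peak in each list, with fold enrichments of 10.6 and 12.4 and a scaled ratio of 1.11 (0.787 to 1.57). *TGFBR3*, the co-receptor betaglycan, had 6 and 7 peaks. Its start-site ratio was the highest of the 41 genes, at 1.62 (1.18 to 2.23), from 68 fragments in sgCtrl and 105 in sgSNHG1.

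*ENG* and *ACVRL1* encode endoglin and ALK1, a co-receptor and a type I receptor known from endothelium. *ENG* had the most covered bases of all 53 genes in sgCtrl, with 14 peaks over 7153 bases, and 9 peaks over 3556 bases in sgSNHG1. Its peaks were low, with a highest fold enrichment of 3.96 in sgCtrl and 3.89 in sgSNHG1, and the ratio at its highest sgCtrl start-site peak was 0.868 (0.600 to 1.25, from 69 and 57 fragments). The other shared start-site peak of *ENG*, at the start of the gene model, went the other way, with 79 and 86 fragments and fold enrichments of 2.83 and 3.89. *ACVRL1* had 7 peaks over 4164 bases and 4 over 2579, with 139 and 91 fragments at the start and a ratio of 0.688 (0.522 to 0.902), while 249 shared peaks within 5 Mb had a median of 1.04. *BMPR2*, the type II BMP receptor, had 7 peaks over 4900 bases in sgCtrl and 8 over 4851 in sgSNHG1, so its coverage was nearly equal. The start-site peaks of *ACVR1* also lay at a start site of *UPP2*.

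**Figure D3:**
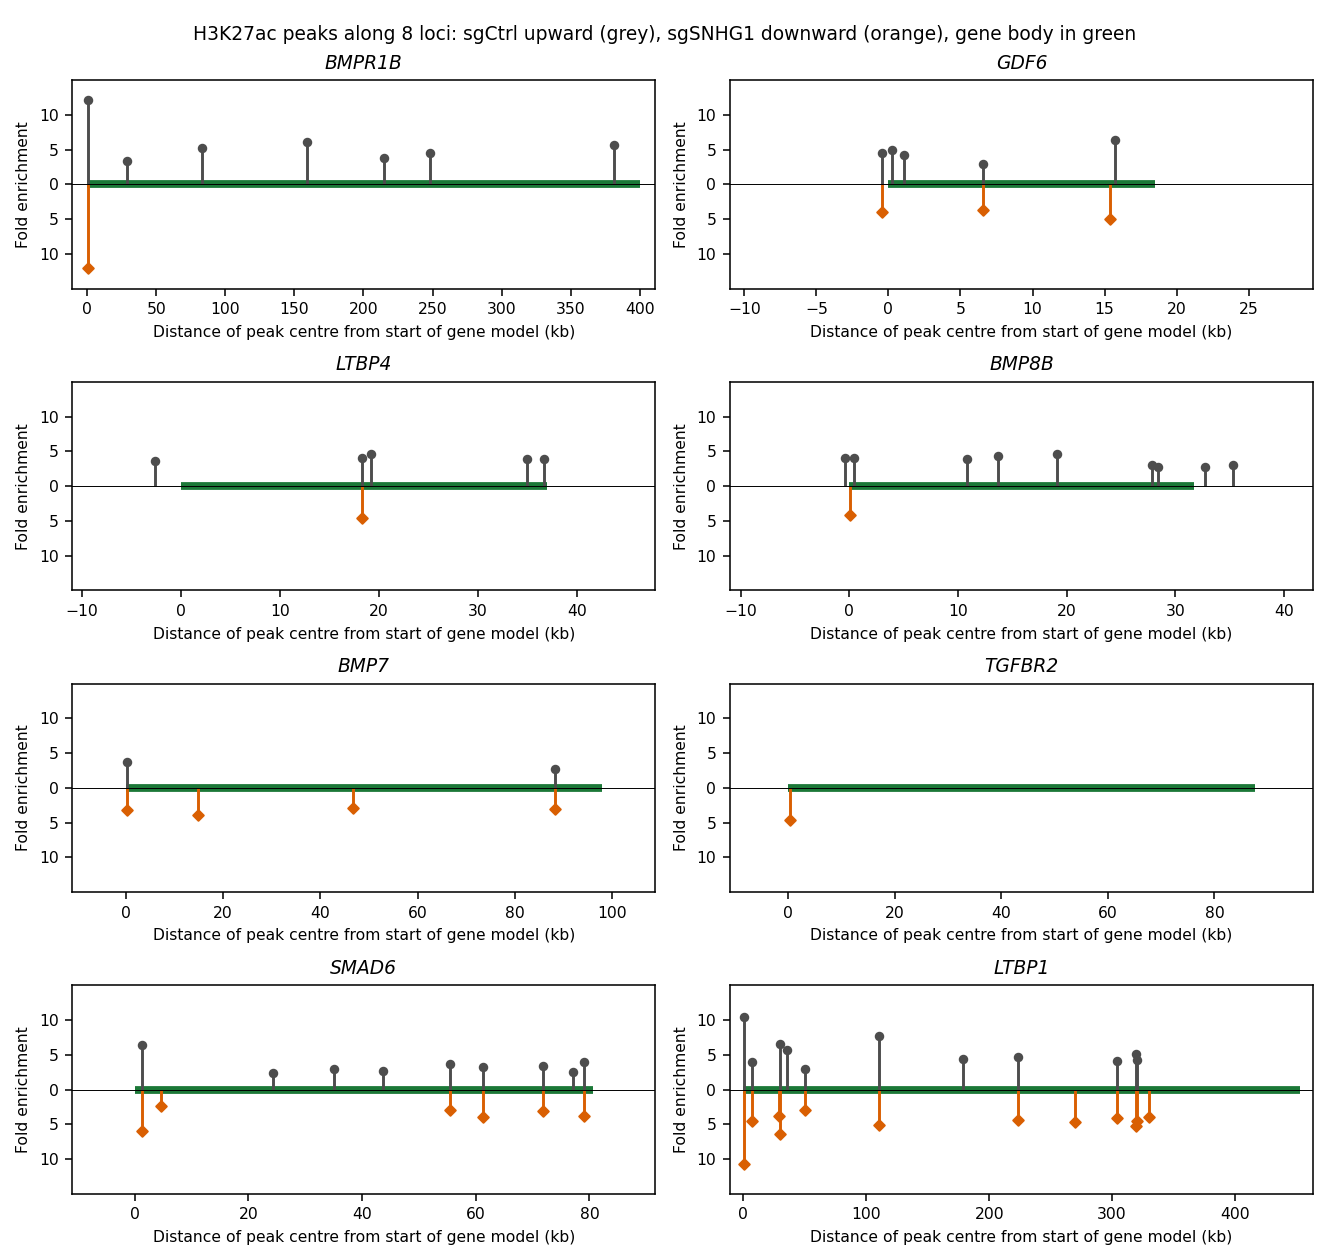
Fold enrichment of each peak (y axis, sgCtrl upward and sgSNHG1 downward) against the distance of the peak's centre from the start of the gene model in kb (x axis), for 8 genes, with the gene body in green. At *BMPR1B* 6 of 7 grey stems have no orange stem below them, *BMP8B* and *LTBP4* have 1 orange stem each, and *TGFBR2* has an orange stem only.

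All 8 SMADs had a start-site peak in both lists, and none passed the limits of 0.5 and 2 times in covered length. *SMAD6*, the inhibitor of BMP signals that BMPs themselves induce, had 9 peaks over 5130 bases in sgCtrl and 6 over 3830 in sgSNHG1. The start-site peak of *SMAD6* had 179 and 128 fragments, a ratio of 0.751 (0.594 to 0.948). *SMAD7*, the broader inhibitory SMAD, had 6 peaks over 2319 bases and 5 over 2071, with a start-site ratio of 1.18 (0.879 to 1.58). *SMAD3*, which carries TGF-beta and activin signals, had 12 peaks over 4799 bases and 9 over 3912, with a start-site ratio of 0.823 (0.615 to 1.10).

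The start-site ratios of the other SMADs ran from 0.932 to 1.38. They were 1.38 for *SMAD5* (1.12 to 1.70, from 160 and 210 fragments) and 1.36 for *SMAD9* (1.01 to 1.84, from 81 and 105), both BMP-activated like *SMAD1*. *SMAD2*, the partner of *SMAD3*, stood at 1.01 and *SMAD4* at 0.932. The third BMP-activated SMAD, *SMAD1*, stood at 0.549 on the long arm of chromosome 4. Its interval (0.434 to 0.691) included the median of 0.635 of the shared peaks within 5 Mb. The interval of *SMAD9* included the start-site median of 1.10 over all genes, and that of *SMAD5* began just above it. These values therefore do not settle whether the 3 genes differ in direction.

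Inhibitors and regulators had start-site ratios from 0.722 to 1.61. *NOG*, which encodes the secreted BMP antagonist noggin, had 1 peak in each list, of 1044 bases in sgCtrl and 338 in sgSNHG1, with 32 and 22 fragments and a ratio of 0.722 (0.400 to 1.28). *BAMBI*, a pseudoreceptor that BMP and TGF-beta signals induce, had 1 peak of 747 bases in each list. Its fold enrichment was 8.82 and 11.5 and its fragments 51 and 78, a ratio of 1.61 (1.12 to 2.33). Of the 4 genes known as feedback inhibitors, *BAMBI* and *SMAD7* had a ratio above 1 and *NOG* and *SMAD6* one below it. The intervals cover counting error only, so no direction was tested for any of the 4. The median over all genes was 1.10. The intervals of *SMAD7* (0.879 to 1.58) and *NOG* included both 1 and this median, and that of *BAMBI* began just above it. That of *SMAD6* (0.594 to 0.948) reached up to the median of 0.9475 of the shared peaks within 5 Mb.

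Some of the latent TGF-beta binding proteins, LTBP1 among them, hold the secreted ligand in the matrix. *LTBP1* had 11 peaks over 5805 bases in sgCtrl and 12 over 6775 in sgSNHG1, and 210 and 288 fragments at its start, a ratio of 1.44 (1.20 to 1.73). *LTBP3* had 8 peaks over 4253 bases and 7 over 4054, with a start-site ratio of 0.776 (0.607 to 0.990). *LTBP2* had 9 peaks over 4089 bases and 7 over 2653, and its highest peak lay at the start sites of *ISCA2* and *NPC2*. *LTBP4* had 5 peaks over 1631 bases and 1 peak over 415 bases. The shared peak of *LTBP4* had 54 and 49 fragments, a ratio of 0.953 (0.634 to 1.43), while the 4 without a counterpart had 34 to 61. *FSTL3*, which binds activin, had 5 peaks over 2176 bases and 2 over 1069, and its start-site peak stood at a fold enrichment of 5.98 and 7.38 with a ratio of 0.984.

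The other genes here were *SMURF1*, *SMURF2*, *CHRD* and *GREM1*. *SMURF1* had 4 peaks over 1511 bases in sgCtrl and 1 over 831 in sgSNHG1. *GREM1*, which encodes the BMP antagonist gremlin, had 3 peaks over 2539 bases and 4 over 2308. The start-site peak of *CHRD*, which encodes the BMP antagonist chordin, also lay at a start of *THPO*.

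Another 57 genes of the pathway were read in the same way, and 43 of them had a peak in sgCtrl and 43 in sgSNHG1. This share was 75.4% in each list, against 79.4% and 77.5% of all genes. Start-site peaks stood at 66.7% in sgCtrl and 63.2% in sgSNHG1, against 64.3% and 63.4%. The higher shares of the 53 genes were thus not seen here. Of 44 with a peak in at least 1 list, 6 had a covered length of at most 0.5 times that in sgCtrl (13.6%, against 13.9% of all genes). At least 2 times was found at 2 (4.55%, against 5.18%). All 12 intracellular regulators had a start-site peak in both lists. The SMAD corepressor *SKI* had 35 peaks over 20401 bases in sgCtrl and 27 over 12878 in sgSNHG1, and the kinase gene *HIPK2* had 21 over 8099 and 7 over 2932. Of 18 genes known as SMAD targets 14 had a peak in each list, a share of 77.8% against 79.4% (sgCtrl) and 77.5% (sgSNHG1) of all genes. Their covered length had a ratio of 0.992, against 0.757 for the 53 genes and 0.800 over all genes. Of the 13 targets with a peak in both lists, 11 had a lower percentile of the highest peak in sgSNHG1. Over all genes 8899 of 15051 did. The median change in percentile was -1.99 points, against -1.98 for the 53 genes and -0.68 over all genes. For the 53 genes it was -0.405 with lists of equal size, a setting not given for these targets. The BMP targets *ID1*, *ID2* and *ID3* had start-site peaks in both lists, with 2800 covered bases in sgCtrl and 2793 in sgSNHG1 at *ID2*. *JUNB* had 5099 and 5302, and *COL1A1* 4184 and 2745. *CDKN1A* had 2 peaks in sgCtrl and none in sgSNHG1. *MSX1* had 1 peak in sgSNHG1 alone, and *RUNX2* had 1 peak in sgCtrl and 4 in sgSNHG1.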

How the data were processed

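H3K27ac was measured by ChIP-seq in 2 samples of sgCtrl and 2 of sgSNHG1. The authors trimmed the reads with cutadapt and aligned them to GRCh38 with BWA. The replicates were pooled within each group, and MACS2 then called peaks at a p-value of 1e-06 with duplicates kept. The deposited lists give the fold enrichment of each summit, which is a ratio to the local background estimated by the authors' peak caller. The −log10 p of the authors' peak caller was used as deposited, and its q-values were not used. The depth per sample is unknown. Other data types of the study were not analysed here.

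Peaks in the window of each gene (GENCODE release 44, body plus 10 kb) were counted and their bases summed, with 1 shared base counting as an overlap between the lists. Percentiles are ranks of fold enrichment within a list. Fragments were recovered as the whole number that gives both a Poisson p and, after adding 1 to summit and background, the fold enrichment. This step and the comparison with peaks within 5 Mb were chosen after seeing the data. The computations ran in Python 3.11.15 (pandas 2.3.3, numpy 2.4.6, scipy 1.17.1; figures in matplotlib 3.10.9) and were tested on simulated data.

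The genes and lists were chosen with earlier results of these data known. Named with values were, in each role, the 3 genes with the most covered bases in sgCtrl, those past 0.5 or 2 times in covered length with at least 2 peaks in a list, those with peaks in 1 list alone, those on the long arm of chromosome 4, and 4 feedback inhibitors. Others were named after their values were seen. A marker gene and a sequence under this rule are not reported here. The alternatives tried were lists of equal size, a limit of 10 on the −log10 p, the gene body alone, windows of 50 kb, merging of peaks within 1 kb, overlap of 50% of both peaks, start sites within 3 kb, and leaving out the 5 genes with the most sgCtrl peaks.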

Additional observations from a re-analysis of the deposited data

How the results depend on the processing

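Of 72 values computed under alternative settings, 63 kept their direction and stayed within 1.5 times of those reported, or, for shares of peaks, within the 95% counting interval. Cutting the sgCtrl list to as many peaks as the sgSNHG1 list holds moved most of the rest. The genes with a covered length of at most 0.5 times that in sgCtrl then numbered 4 (9.09%, against 8.62% of all genes) and those with at least 2 times also 4 (9.09%, against 8.72%), and the median change in percentile was -0.405. The ratio of peak numbers was then 0.907 and the ratio of covered length 0.873 (0.805 at the ligands). The whole lists then hold the same number of peaks by construction. These ratios and that median change are given for the pathway alone, so they cannot be set against all genes. The share of sgCtrl peaks with a counterpart was then 69.5% and that of sgSNHG1 peaks 75.9%. The covered length of the SMADs reversed its direction, to a ratio of 1.05. An overlap of 50% of both peaks gave shares of 50.3% and 71.5%, and windows of 50 kb gave a median change of -0.801. Counts of genes were compared here without their share over all genes. For the genes at 0.5 times or less, that share was also near that of all genes in 2 other settings. These were the limit of 10 on the −log10 p (15.9% against 16.0%) and the gene body alone (15.9% against 16.4%). The cut to equal size leaves weak sgCtrl peaks out by its construction. *BMPR1B*, *GDF6*, *NOG* and *LTBP4* stayed at or below 0.5 times in all 6 settings of list and window. Cutting the lists does not touch the sgSNHG1 list, so it gives no other value for counts in that list alone. No paired analysis was possible because each group is 1 list of pooled reads, and for the same reason no replicate could be left out. Without depth per sample, a peak just under the threshold in 1 list cannot be told from a missing one.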
